A study of Mus musculus with 4 samples.

Results

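Transcripts of 10 neutrophil granule proteins were followed in libraries labelled as sorted megakaryocytes from the bone marrow of young and old mice. They were taken by gene symbol from a table of 56793 genes, and each of the 10 symbols matched 1 row. The primary (azurophil) granule group holds Mpo, Elane, Prtn3 and Ctsg, the secondary (specific) group holds Camp, Ltf, Ngp and Lcn2, and the tertiary or late group holds Mmp8 and Mmp9. There were 2 libraries from young mice (cell type label Mk_Young) and 2 from old mice (Mk_Old), all with the genotype label Blc6 and no treatment named. The labels state no ages, sorting gate or number of animals per library. The p-values therefore measure only the spread between these libraries, which may be technical.

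Neutrophils fill their granules in the order in which they mature. Primary granule proteins are transcribed in promyelocytes, secondary granule proteins in myelocytes and metamyelocytes, and gelatinase granule proteins later, in band cells, so the transcripts of each class mark a stage of the lineage. The transcription factors PU.1, MYB and C/EBP alpha act on primary granule genes, and C/EBP epsilon is needed for secondary granule genes. In mature blood neutrophils most of these transcripts are low while the proteins persist.

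Promoter sequence was available for 9 of the 10 genes in a RefSeq table of build GRCm38.p6, and Mmp9 had no entry. That build is not among those the submitters name, so the coordinates below belong to the RefSeq table alone. Each window holds the 250 bases before the gene's start and the 50 after it, and only bases before the start are printed. All sequences run 5′ to 3′ on the gene's strand, and positions are counted from 1 at the 5′ end of the window. Capitals mark 3 short motifs searched on both strands: GAGGAAG, a PU.1-type motif, AACGG, a MYB-type motif, and TTGCNNAA, a C/EBP-type motif. The motifs were chosen after the sequences had been seen. They occur in 13.6%, 17.4% and 10.8% of 32851 promoter windows of the table, and no motif match overlapped another in these genes. A match describes letters only and is not evidence that a factor binds there.

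Prtn3 and Elane are shown in full because they are next to each other among the protein-coding genes of chromosome 10, and in both GAGGAAG is followed by AACGG. The PU.1-type motif begins at base 156 in Prtn3 and 166 in Elane, and the MYB-type motif at base 196 and 201.
Prtn3, chr10:79879417-79879666, plus strand: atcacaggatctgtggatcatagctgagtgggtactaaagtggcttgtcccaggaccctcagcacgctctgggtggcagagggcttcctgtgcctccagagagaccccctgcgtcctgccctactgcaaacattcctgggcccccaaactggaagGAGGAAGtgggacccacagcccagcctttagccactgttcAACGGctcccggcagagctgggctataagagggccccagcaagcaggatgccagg
Elane, chr10:79886062-79886311, plus strand: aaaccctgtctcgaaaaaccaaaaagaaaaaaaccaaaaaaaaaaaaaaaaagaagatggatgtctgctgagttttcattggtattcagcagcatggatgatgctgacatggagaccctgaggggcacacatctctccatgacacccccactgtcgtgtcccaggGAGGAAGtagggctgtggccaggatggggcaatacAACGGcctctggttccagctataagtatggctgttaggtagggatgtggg
The other primary granule genes also held GAGGAAG, in Mpo at bases 4 and 27 and in Ctsg at base 35, so all 4 genes of the class had it and no C/EBP-type motif was found in their windows. A stretch of 60 bases is given for each.
Mpo, chr11:87793534-87793593, plus strand: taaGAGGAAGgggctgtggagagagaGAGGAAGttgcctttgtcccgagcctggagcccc
Ctsg, chr14:56102757-56102816, minus strand: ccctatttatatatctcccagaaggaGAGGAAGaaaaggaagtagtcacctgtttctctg
Camp and Ngp are shown in full as the secondary granule genes with the largest differences in level between the groups. Ngp held the C/EBP-type motif at bases 113 and 240, and Camp held none of the 3 motifs.
Camp, chr9:109849457-109849706, minus strand: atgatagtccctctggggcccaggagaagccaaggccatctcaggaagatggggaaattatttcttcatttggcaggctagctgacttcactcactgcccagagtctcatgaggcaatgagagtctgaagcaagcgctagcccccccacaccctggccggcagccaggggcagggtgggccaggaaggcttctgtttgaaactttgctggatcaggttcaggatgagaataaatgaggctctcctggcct
Ngp, chr9:110419558-110419807, plus strand: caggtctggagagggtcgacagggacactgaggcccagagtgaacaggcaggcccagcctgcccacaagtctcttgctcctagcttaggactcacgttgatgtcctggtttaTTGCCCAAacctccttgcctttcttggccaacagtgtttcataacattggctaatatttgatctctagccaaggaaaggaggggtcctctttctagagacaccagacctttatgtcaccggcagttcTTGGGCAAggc
The C/EBP-type motif was also found in Ltf, Lcn2 and Mmp8, each shown over 60 bases. Lcn2 and Mmp8 held GAGGAAG too, on the opposite strand, which in both lies outside the stretch printed.
Ltf, chr9:111019191-111019250, plus strand: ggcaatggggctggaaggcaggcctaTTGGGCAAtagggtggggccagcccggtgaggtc
Lcn2, chr2:32387922-32387981, minus strand: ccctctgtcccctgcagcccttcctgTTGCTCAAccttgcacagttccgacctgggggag
Mmp8, chr9:7558369-7558428, plus strand: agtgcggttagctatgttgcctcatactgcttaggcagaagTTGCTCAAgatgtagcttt

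Levels are in TPM, transcript abundances that account for transcript length and sum to the same total in each library, which lets genes be compared with each other but which keeps no sequencing depth. The depth of each library is therefore unknown, and no counting interval is given. The label of the sorted cells was checked against marker genes. The 11 neutrophil markers that are not granule members, led by S100a9 and S100a8, summed to 113450 and 106983 TPM in young libraries against 97212 and 98033 TPM in old ones. The 12 megakaryocyte markers summed to 1933 and 2448 TPM in young libraries against 1150 and 1606 TPM in old ones, with Gp1bb at or below 0.302 TPM in every library. By TPM the libraries thus held far more neutrophil than megakaryocyte marker transcript. The authors' mean normalized signal was 42708 for Camp and 13005 for the megakaryocyte marker Gp5. That gap is far smaller than in TPM, where Camp was at 4927 or more and Gp5 at 51.4 or less. For the megakaryocyte marker Pf4 the order was reversed. The authors' signal for Pf4 was 129661, above that of Camp, while in TPM Pf4 was at 832 or less. The reason for this difference between the measures was not tested. How much of any level came from which cells was not tested either. In such mixed samples, fewer cells of a type and less RNA per cell cannot be told apart. Immunoglobulin genes took 1.03% and 0.896% of all TPM in the young and 13.3% and 13.1% in the old libraries, and because TPM has a fixed total, that share lowers every other gene in the old libraries. Differences were therefore also computed with immunoglobulin genes removed and the rest rescaled.

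Together the 10 granule transcripts made up 3.59% and 3.63% of all TPM in the young and 3.08% and 2.95% in the old libraries. The 4 secondary granule transcripts were the most abundant, and in every library the order from the highest was Ngp, Camp, Lcn2, Ltf, Mpo, Mmp9 and Elane. Mmp8 and Prtn3 exchanged the next places between libraries, and Ctsg was lowest in all 4. Ngp was among the 6 most abundant genes of each library. Over the 4 libraries pooled, the ranges of Lcn2 and Ltf overlapped, as did those of Mmp9 and Elane, of Elane and Prtn3, and of Prtn3 and Mmp8. Pooling counts the group difference as spread, and within each group Lcn2 lay above Ltf and Mmp9 above Elane without overlap. Elane and Prtn3 overlapped in the old group, and Prtn3 and Mmp8 in both groups.

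Secondary granule transcripts were lower in both old libraries than in both young ones, for all 4 genes, and Camp passed the test. Of all 16073 genes tested, 46.1% were lower in both old libraries and 14.7% were called lower. Camp, the cathelicidin antimicrobial peptide precursor, was at 7091 and 7108 TPM in young libraries against 4927 and 4983 TPM in old ones. The replicates of each group lay close together and the groups were far apart. Camp fell by 0.52 on the log2(TPM + 1) scale (SE 0.08), with an adjusted p of 0.0227 in limma, a linear model with variances shared across genes. The adjusted p was 0.0579 with immunoglobulin genes removed, where its log2 difference was -0.33, and 0.214 after median-ratio scaling. Without young replicate 1 it was 0.202 and without young replicate 2 it was 0.190, and Camp passed in 5 of 12 alternatives. In the authors' deposited table Camp, the only one of the 10 genes listed there, stood at a log2 fold change of -0.32, with an SE of 0.14 and an adjusted p of 0.0364. The fold divided by its SE was -2.29, closer to 0 than the authors' unadjusted p of 0.0026 implies. The authors' fold may thus have been drawn toward 0, and its size is not comparable with the limma differences.

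Ngp, the neutrophilic granule protein, a relative of the cathelicidins, was at 14178 and 14247 TPM in young libraries against 11830 and 10462 TPM in old ones. Both old values lay below both young ones, and the old libraries were further apart than the young. Its log2 difference was -0.35 (SE 0.11), with an adjusted p of 0.0809 in limma. Lcn2, lipocalin 2, which binds the iron carriers of bacteria, was at 4304 and 4337 TPM in young libraries against 3797 and 3609 TPM in old ones. The groups did not overlap. The log2 difference of Lcn2 was -0.22 (SE 0.08), with an adjusted p of 0.0976 in limma.

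Ltf, lactoferrin, an iron-binding protein, was at 3734 and 3657 TPM in young libraries against 3332 and 2798 TPM in old ones. The gap between the groups was smaller than the gap between the old libraries. Its log2 difference was -0.28 (SE 0.11), with an adjusted p of 0.125 in limma. Without old replicate 1 the log2 differences of Ltf, Ngp and Lcn2 were -0.40, -0.44 and -0.26. Without old replicate 2 they were -0.15, -0.26 and -0.19. Such fits leave 1 old library and take a gene's own spread from the young pair alone, so no call is read from them. Once immunoglobulin genes were removed, the log2 differences of Ngp, Ltf and Lcn2 were -0.16, -0.08 and -0.03.

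Of the primary granule transcripts, none was lower in both old libraries than in both young ones. Mpo, myeloperoxidase, which makes hypochlorous acid, was at 1569 and 1726 TPM in young libraries against 1857 and 2145 TPM in old ones. Both old values lay above both young ones, and replicates differed by nearly as much as the groups. Its log2 difference was 0.28 (SE 0.10), with an adjusted p of 0.108 in limma, and with immunoglobulin genes removed it was 0.47, with an adjusted p of 0.0388.

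The 3 serine proteases overlapped between the groups. Elane, neutrophil elastase, was at 1114 and 1224 TPM in young libraries against 1100 and 1376 TPM in old ones, with a log2 difference of 0.08 (95% interval -0.24 to 0.40). Prtn3, proteinase 3, was at 993 and 1074 TPM in young libraries against 863 and 1141 TPM in old ones, with a log2 difference of -0.06 (95% interval -0.43 to 0.31). Ctsg, cathepsin G, was at 575 and 585 TPM in young libraries against 535 and 662 TPM in old ones, with a log2 difference of 0.04 (95% interval -0.25 to 0.32).

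For each of these proteases old replicate 1 was the lowest library and old replicate 2 the highest. Their adjusted p-values in limma ran from 0.686 to 0.832, and the intervals hold changes in either direction. After removal of immunoglobulin genes the log2 differences of Elane, Prtn3 and Ctsg were 0.27, 0.13 and 0.23, none past the threshold, and the sign for Prtn3 was the opposite of that as deposited.

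The metalloproteinases grouped here as tertiary or late differed in opposite directions as deposited. The grouping is a label, and whether Mmp8 marks the same stage as Mmp9 was not tested. Mmp8, neutrophil collagenase, was at 1032 and 1022 TPM in young libraries against 965 and 832 TPM in old ones. Mmp9, gelatinase B, was at 1299 and 1278 TPM in young libraries against 1553 and 1487 TPM in old ones. For neither gene did the groups overlap, with Mmp8 lower and Mmp9 higher in the old libraries. The log2 difference of Mmp8 was -0.20 (SE 0.09), with an adjusted p of 0.167 in limma, and with immunoglobulin genes removed the difference was -0.0068. For Mmp8 it was -0.30 without old replicate 1 and -0.091 without old replicate 2. The log2 difference of Mmp9 was 0.24 (SE 0.06), with an adjusted p of 0.0575 in limma, and with immunoglobulin genes removed it was 0.43, with an adjusted p of 0.0198. Mmp9 also passed at a minimum mean of 5 TPM, with a limma adjusted p of 0.0458. For Mmp9 the log2 difference was 0.21 without old replicate 1 and 0.27 without old replicate 2.

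**Figure D1:**
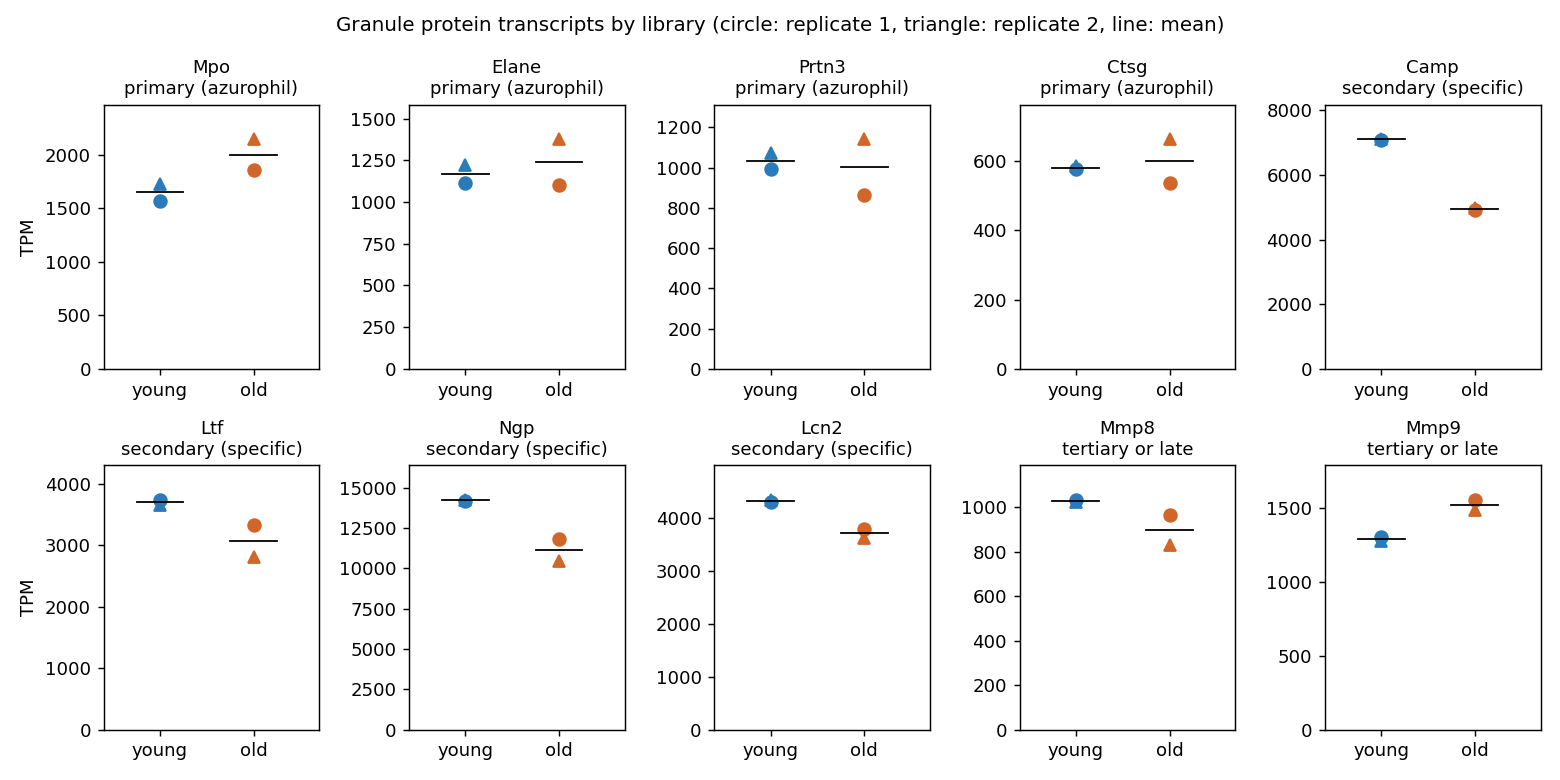
TPM of each granule transcript (vertical axis, from 0) in the 2 young and 2 old libraries, with circles for replicate 1, triangles for replicate 2 and a line at the group mean. Camp is at 7091 and 7108 TPM in young and 4927 and 4983 TPM in old libraries, while Elane, Prtn3 and Ctsg overlap between the groups.

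All 10 members passed the filter of a mean of at least 1 TPM, as did 16073 genes in all. Of the 10, 1 was called lower in old, against 14.7% of all genes tested, and 0 were called higher, against 5.2%. At an unadjusted limma p under 0.05, 4 were lower and 2 higher. The share of all tested genes at that level was not computed, so these counts stand without a background. Groups did not overlap for 7 members, with 5 lower in both old libraries, where 46.1% of all tested genes were, and 2 higher in both, where 21.8% were. With immunoglobulin genes removed, Mpo and Mmp9 were called higher, against 8.02% of genes, and 0 of the 10 were called lower, against 3.15%. After median-ratio scaling 0 were called, against 11.5% of genes. The median log2 difference of all tested genes was -0.10 as deposited, 0.07 with immunoglobulin genes removed and -0.05 after median-ratio scaling. The median of the 4 secondary granule genes was -0.31 in the values as deposited and -0.12 once immunoglobulin genes were removed, and that of the 4 primary granule genes was 0.06 and 0.25.

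**Figure D2:**
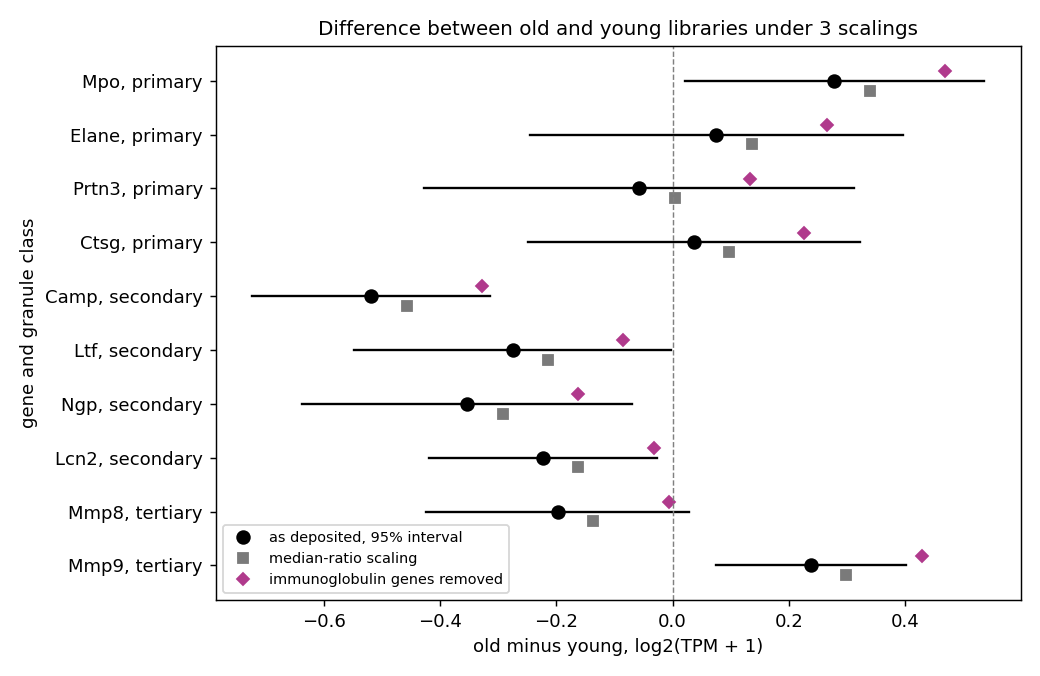
Difference between old and young libraries on the log2(TPM + 1) scale (horizontal axis) for each granule gene (vertical axis). Black points with lines are values as deposited with 95% intervals from limma, grey squares are values after median-ratio scaling and purple diamonds are values with immunoglobulin genes removed. Removal of immunoglobulin genes places every member further to the right, and Camp, at -0.52 as deposited, remains the lowest of the 10, at -0.33.

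Ratios within a library do not depend on the share taken by immunoglobulin genes. They are given as a description, since the members were chosen with results known. The summed secondary granule transcripts were 29307 and 29350 TPM in young libraries against 23886 and 21852 TPM in old ones, and the summed primary ones were 4252 and 4609 TPM and 4355 and 5325 TPM. The ratio of secondary to primary was 6.89 and 6.37 in young libraries against 5.49 and 4.10 in old ones. Both old ratios were below both young ones, and the old libraries differed more from each other than the young. On the log2 scale the group means of this ratio differed by -0.48, against a spread between replicates of 0.22 (SD). The difference was -0.27 without old replicate 2 and -0.69 without old replicate 1.

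The ratios of single genes were picked with their values in view. The ratio of Camp to Mpo was 4.52 and 4.12 in young libraries against 2.65 and 2.32 in old ones. The ratio of Ngp to Mmp9 was 10.9 and 11.2 in young libraries against 7.62 and 7.03 in old ones. The ratio of Mmp9 to Mmp8 was 1.26 and 1.25 in young libraries against 1.61 and 1.79 in old ones. In all of these ratios the groups did not overlap.

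As a percentage of the summed neutrophil markers, Camp was 6.25 and 6.64 in young libraries against 5.07 and 5.08 in old ones. S100a9 and S100a8 make up most of that sum, at 59317 and 42517 TPM in young replicate 1. The scale is thus largely a ratio to these genes and not a measure of neutrophil content. Mpo was 1.38 and 1.61 in young libraries against 1.91 and 2.19 in old ones, and Mmp9 was 1.14 and 1.19 in young libraries against 1.60 and 1.52 in old ones. Ngp was 12.5 and 13.3 in young libraries against 12.2 and 10.7 in old ones. On this scale Camp and Ngp were lower and Mpo and Mmp9 higher in both old libraries, while Lcn2, Ltf, Elane, Prtn3 and Mmp8 overlapped between the groups. Ctsg, at 0.507 and 0.547 in young libraries against 0.550 and 0.675 in old ones, did not overlap, by a narrow margin.

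**Figure D3:**
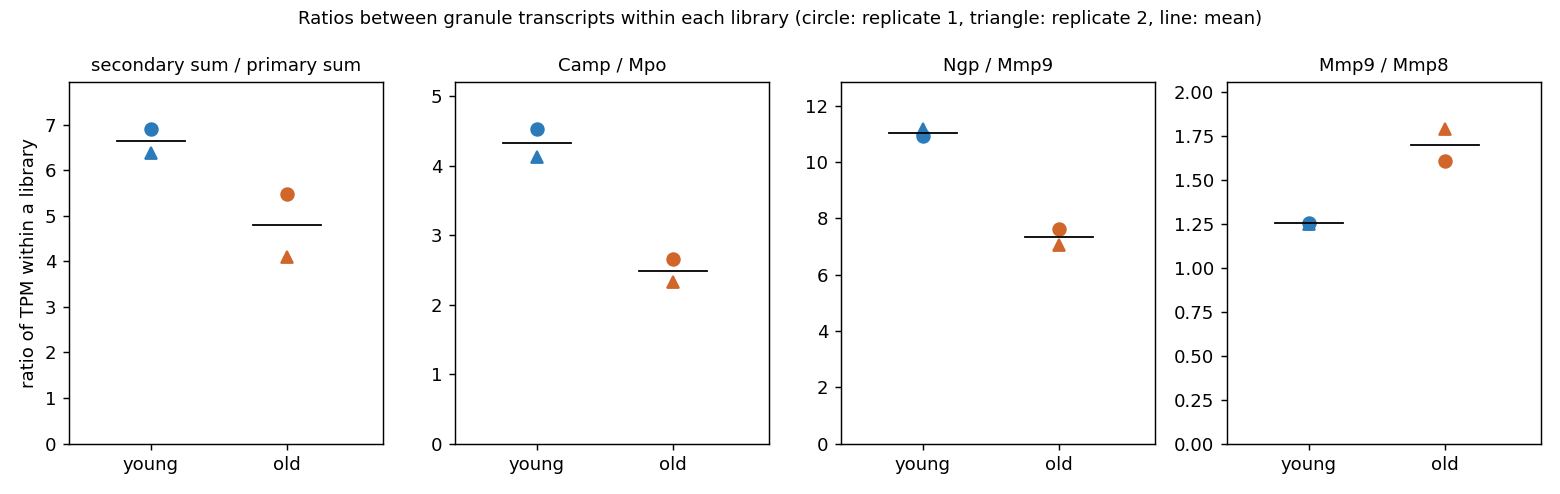
Ratios of TPM within each library (vertical axis, from 0) for the summed secondary over the summed primary granule transcripts, Camp over Mpo, Ngp over Mmp9 and Mmp9 over Mmp8. Circles are replicate 1, triangles replicate 2 and lines group means. The old libraries lie below the young in the left 3 panels, with a secondary to primary ratio of 5.49 and 4.10 against 6.89 and 6.37, and above them in the right panel.

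Other cargo of the granules was read from lists. Calls among these genes depended on the settings and on both young libraries. Of 23 list genes called and picked by the naming rule, 1 passed with no filter on low values, 7 without the variance trend, 14 with immunoglobulin genes removed, 15 after median-ratio scaling and 17 with the replicate block. With 1 library left out, 4 passed without young replicate 1, 2 without young replicate 2, 19 without old replicate 1 and 21 without old replicate 2. Of 12 further azurophil and lysosomal genes 11 were tested, Bpi being too low, and 3 fell and 1 rose, against 14.7% of all genes called lower and 5.2% higher. The counts were 1 lower and 2 higher with immunoglobulin genes removed, against 3.15% and 8.02% of all genes. Ctsc, cathepsin C, which activates the serine proteases of the primary granule, fell from 172 ± 2.88 to 122 ± 3.43 TPM (SD, n = 2 each, limma adjusted p = 0.0149). Lyz2, lysozyme, fell from 13512 to 9570 TPM (adjusted p = 0.0411). Lyz1 and Lyz2 are close copies whose reads may not be told apart. Srgn, serglycin, the proteoglycan that holds granule proteins, rose from 565 to 747 TPM (adjusted p = 0.0196). On removal of immunoglobulin genes, the adjusted p was 0.130 for Lyz2.

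Of 11 further genes of the secondary granule 2 fell and 0 rose, against 14.7% of all genes called lower and 5.2% higher. Their median log2 difference was -0.18. Chil3, a chitinase-like protein, fell from 3750 ± 31.4 to 2593 ± 155 TPM (SD, n = 2 each, limma adjusted p = 0.0217), a log2 difference of -0.53 beside the -0.52 of Camp. Chil1, another member of that family, fell from 381 to 313 TPM (adjusted p = 0.0365). With immunoglobulin genes removed, 0 of the 11 were called lower or higher, against 3.15% and 8.02% of all genes. The limma adjusted p was then 0.0501 for Chil3 and 0.336 for Chil1.

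Of 12 genes of gelatinase granules and secretory vesicles 3 rose and 1 fell, against 5.2% of all genes called higher and 14.7% lower. Adam8, a membrane protease, was at 165 and 181 TPM in young libraries against 372 and 277 TPM in old ones (limma adjusted p = 0.0251). Cd14, the lipopolysaccharide co-receptor, rose from 25.2 to 41.4 TPM (adjusted p = 0.0139) and Slc11a1, a metal ion transporter of phagosomes, from 74.3 to 112 TPM (adjusted p = 0.0201). Fcnb, ficolin B, fell from 380 to 260 TPM (adjusted p = 0.0240). The 3 rises stayed past the threshold with immunoglobulin genes removed, and Fcnb had an adjusted p of 0.0519.

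Of 12 genes for processing or inhibiting granule proteases 2 rose and 4 fell, against 5.2% of all genes called higher and 14.7% lower. Ctsc, counted above among the azurophil and lysosomal genes, is 1 of the 4 falls. Removing immunoglobulin genes gave 4 called higher and 3 lower, against 8.02% and 3.15% of all genes. Slpi, an inhibitor of elastase and cathepsin G, was at 560 and 515 TPM in young libraries against 891 and 1047 TPM in old ones, a rise of 0.85 on the log2 scale (limma adjusted p = 0.0151). Serpinb1a, another inhibitor of these proteases, fell from 289 to 217 TPM (adjusted p = 0.0227), and Timp3, an inhibitor of metalloproteinases, from 42.3 to 23.3 TPM (adjusted p = 0.0297). Both were named after their values were seen. Serpinb1a had a log2 difference of -0.41 in the values as deposited and of -0.22 once immunoglobulin genes were removed, where its adjusted p was 0.0762. After median-ratio scaling its adjusted p was 0.0540. Of the stefin A genes, inhibitors of cysteine proteases, Stfa2l1 rose from 275 to 370 TPM (adjusted p = 0.0205) and Stfa3 fell from 23.4 to 13.0 TPM (adjusted p = 0.0130). These are near-identical copies that can share reads, so the single values are uncertain.

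Of 14 transcription factors of granulocyte differentiation 5 fell and 0 rose, against 14.7% of all genes lower and 5.2% higher. None of the 5 is among the genes that the authors list as changed. Cebpe, C/EBP epsilon, was at 206 and 204 TPM in young libraries against 132 and 138 TPM in old ones, and fell by 0.60 on the log2 scale (limma adjusted p = 0.0107). Its adjusted p was 0.0168 with immunoglobulin genes removed, where it was the only one of the 14 still called lower, against 3.15% of all genes. There 1 of the 14, Etv6, was called higher (limma adjusted p = 0.0432), against 8.02%. Cebpa, C/EBP alpha, fell from 75.9 to 54.7 TPM (adjusted p = 0.0223), Irf8, which favours monocytes over granulocytes, from 262 to 205 TPM (adjusted p = 0.0232) and Cbfb, the partner of RUNX factors, from 91.6 to 71.1 TPM (adjusted p = 0.0240). With immunoglobulin genes removed the adjusted p was 0.0589 for Cebpa, 0.112 for Irf8 and 0.115 for Cbfb. Myb was at 84.5 and 94.9 TPM in young libraries against 98.5 and 83.9 TPM in old ones, and Spi1, the gene of PU.1, at 378 and 377 TPM and 336 and 357 TPM. Both were named after their values were seen, and neither passed.

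Genes of early and late stages moved unevenly. Of 10 genes of early neutrophil precursors 3 fell and 1 rose, against 14.7% of all genes called lower and 5.2% higher. Cebpe and Fcnb, given above, are among the falls, with Top2a, a topoisomerase of dividing cells, from 332 to 235 TPM (limma adjusted p = 0.0221), while Kit, the stem cell factor receptor, rose from 31.5 to 39.6 TPM (adjusted p = 0.0461). Of the 10 genes 1 was called lower and 1 higher with immunoglobulin genes removed, against 3.15% and 8.02% of all genes. There Top2a had a log2 difference of -0.31, against -0.50 as deposited, and a limma adjusted p of 0.0519. Ms4a3, a gene of granulocyte and monocyte progenitors named after its values were seen, was at 143 and 168 TPM in young libraries against 141 and 166 TPM in old ones. Of 12 genes of late neutrophils 6 rose and 0 fell, against 5.2% of all genes higher, and with immunoglobulin genes removed 8 were called higher, against 8.02%. Csf3r, 1 of the 6, is counted again among the neutrophil markers below. Among those not called as deposited, S100a8, S100a9 and Ly6g were lower and Retnlg and Cxcr2 higher in both old libraries.

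Il1b, interleukin-1 beta, was at 369 ± 4.09 TPM in young and 1177 ± 37.0 TPM in old libraries (SD, n = 2 per group), a rise with a limma adjusted p of 0.00106, and G0s2, an inhibitor of lipolysis, rose from 113 to 197 TPM (adjusted p = 0.0103). Btg2, an antiproliferative gene, rose from 191 to 288 TPM (adjusted p = 0.0106) and Junb, an AP-1 subunit, from 356 to 602 TPM (adjusted p = 0.0130). Il1b, Btg2 and Junb are also genes that many stimulated cells express. The formyl peptide receptors Fpr1 and Fpr2, of which Fpr2 also binds the mouse cathelicidin, were at 177 and 166 TPM and at 296 and 273 TPM in the young and old groups. None of the 4 receptors of granule proteins passed.

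**Figure D4:**
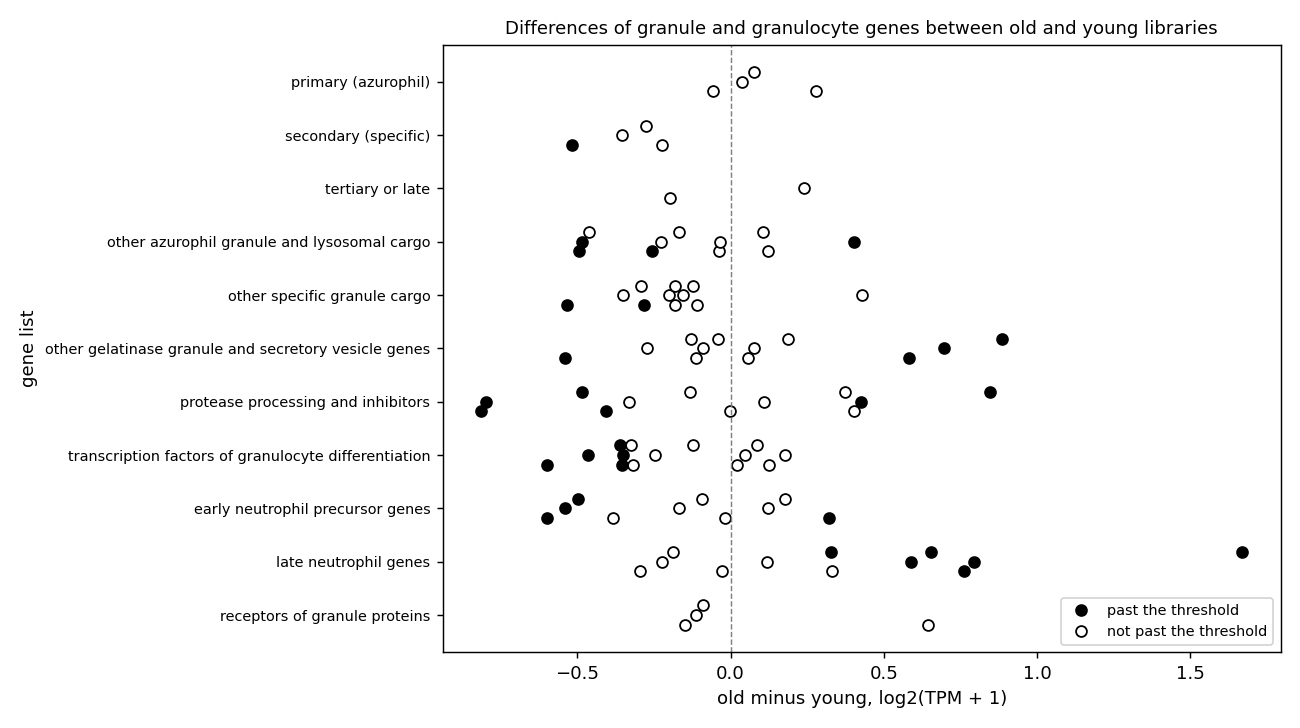
Difference between old and young libraries on the log2(TPM + 1) scale (horizontal axis) for the tested genes of each list (vertical axis), 1 point a gene, filled where the limma adjusted p was under 0.05. Of the secondary granule members Camp is filled, at -0.52, and of the late neutrophil genes 6 are filled, all to the right of 0, with Il1b at 1.67.

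Markers of other cells in the libraries moved as well, and their part in the granule values was not tested. Among all genes tested, 14.7% were called lower and 5.2% higher as deposited. With immunoglobulin genes removed these shares were 3.15% and 8.02%. Of the 11 neutrophil markers 2 rose, Trem1, an activating receptor, from 79.2 to 225 TPM (limma adjusted p = 0.00544) and Csf3r, the G-CSF receptor, from 639 to 1007 TPM (adjusted p = 0.0233), and 1 fell, Wfdc21, from 1020 to 820 TPM (adjusted p = 0.0373). With immunoglobulin genes removed 4 of the 11 were called higher and 0 lower, and Wfdc21 had a log2 difference of -0.12, against -0.31 as deposited, and an adjusted p of 0.258. Of 10 monocyte and macrophage markers 8 fell, and their sum was 1911 and 1840 TPM in young libraries against 1341 and 1420 TPM in old ones. The count of those called lower was 3 with immunoglobulin genes removed and 3 after median-ratio scaling. Monocyte progenitors also express Mpo, Elane and Prtn3. All 6 plasma cell markers rose and all 6 erythroid markers fell, as deposited and with immunoglobulin genes removed. Of 11 megakaryocyte markers tested 1 fell, Gp5, from 46.7 to 25.6 TPM (adjusted p = 0.0451), which had an adjusted p of 0.0747 with immunoglobulin genes removed.

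By the distance between centred log2 profiles over the 4 libraries, the genes most like the primary granule class among the 1457 genes that averaged 100 TPM or more were Nkg7, Wfdc17 and Cd9, at distances of 0.04, 0.09 and 0.14. Those most like the secondary granule class were Papola, Ncapd2 and Mob1a, at 0.01, 0.02 and 0.03. With 4 libraries such likeness is a description only.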

How the data were processed

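RNA of 4 libraries labelled as FACS-isolated megakaryocytes was oligo-dT selected and made into strand-specific libraries, per the labels' protocols. Tools listed in the submitters' processing notes are STAR, TopHat, DESeq2 and Trim Galore, and builds are GRCm39 and mm9, without roles. The values analysed are TPM, made by the authors and deposited for all genes. For 1255 genes that the authors list as changed, a deposited sheet holds their log2 fold change, p-values and a mean normalized signal, per the file headers. Its TPM columns equal those analysed here.

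Genes averaging 1 TPM or more over the libraries were tested on log2(TPM + 1) with limma 3.58.1 in R 4.3.3 (variance trend, two-sided, Benjamini-Hochberg over 16073 genes, threshold 0.05). An exact permutation test of 2 against 2 cannot go below p = 0.333. The script was tested on simulated data. Alternatives changed the pseudocount, filter, scaling, variance trend, replicate block or left out 1 library. With 1 library left out, a gene's own spread rests on the pair of the other group. Same-numbered libraries were not shown to pair. Members and lists were chosen with earlier results of these data known. Named genes were all members and, per list, up to 4 called genes with the smallest p, or up to 2 of the highest mean, plus 3 genes nearest in pattern to each of the primary and secondary classes. A gene picked by this rule is not reported here. Figures were drawn with matplotlib 3.10.9.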

Additional observations from a re-analysis of the deposited data

How the results depend on the processing

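The number of granule genes called lower in old was 1 as reported, and 0 with no filter on low values, median-ratio scaling, immunoglobulin genes removed, limma without the trend and the replicate block. It also changed with the library left out, where 1 group then held 1 library. The number called higher was 0 as reported, 1 at a minimum mean of 5 TPM and 2 with immunoglobulin genes removed. That number, too, changed with the library left out. Over all genes, 835 were higher and 2369 lower as reported. The count of higher genes was 71 with no filter, 1295 with immunoglobulin genes removed, 309 without the trend, 496 with the replicate block and 255 to 734 with 1 library left out. The count of lower genes was 59 with no filter, 900 after median-ratio scaling, 508 with immunoglobulin genes removed, 263 without the trend, 756 with the replicate block and 98 to 1766 with 1 library left out. Deviations of same-numbered libraries correlated at -0.15, and a crossed replicate block, chosen after seeing the data, gave 1498 higher and 3151 lower genes.

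Prtn3 changed sign under median-ratio scaling (0.0034), with immunoglobulin genes removed (0.13) and with 1 library left out (-0.26 to 0.14). Over the libraries left out, the difference ran from -0.086 to 0.24 for Elane, -0.12 to 0.19 for Ctsg, -0.037 to 0.25 for Nkg7 and -0.16 to 0.25 for Wfdc17. With immunoglobulin genes removed Fpr2 (0.076) and Fpr1 (0.10) changed sign. Cd9 did so after median-ratio scaling (0.034), with immunoglobulin genes removed (0.16) and with 1 library left out (-0.13 to 0.076). The log2 difference of Camp ran from -0.53 to -0.33 and its adjusted p from 0.0163 to 0.214 over 12 alternatives. Cebpe passed in all alternatives except no filter (adjusted p = 0.0502) and without young replicate 1 or 2 (0.0749 and 0.0612). The ratio of secondary to primary transcripts differed by -0.69 to -0.27 on the log2 scale with 1 library left out. The cause of these changes was not tested.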

Other observations

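Granule genes of eosinophils, which belong to neither neutrophils nor megakaryocytes, were also abundant. Prg2, the major basic protein, was at 3283 and 3398 TPM in young libraries against 1760 and 2784 TPM in old ones, and Epx, eosinophil peroxidase, a relative of myeloperoxidase, at 224 and 246 TPM and 117 and 198 TPM. Both were named after their values were seen, and neither passed. Prg3, a homologue of Prg2, fell from 157 to 86.4 TPM (limma adjusted p = 0.0369, and 0.0589 with immunoglobulin genes removed). The eosinophil surface genes Siglecf and Il5ra rose, from 21.4 to 28.9 TPM and from 5.02 to 9.05 TPM (limma adjusted p = 0.0272 and 0.0275). Of 6 basophil and mast cell markers tested 2 fell and 0 rose, against 14.7% of all genes called lower and 5.2% higher. The falls were proteases, Mcpt8 from 442 to 358 TPM and Cpa3 from 90.0 to 64.5 TPM (limma adjusted p = 0.0456 and 0.0286). Neither passed with immunoglobulin genes removed (adjusted p = 0.314 and 0.0867). There 0 were called lower and 2 higher, against 3.15% and 8.02% of all genes. Those called higher were Fcer1a and Gata2 (limma adjusted p = 0.0267 and 0.0341), both named after their values were seen.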
